A study of Mus musculus with 4 samples.

Results

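E2A binding was examined at 10 effector cytokine genes, Il4, Il13, Il5, Ifng, Il10, Il17a, Il17f, Il21, Il2 and Tnf, out of 22350 protein-coding genes on the chromosomes that carry peaks. A peak was counted for a gene when its midpoint lay in the gene body or within 100 kb of it on the mm9 assembly. By this rule 26 of the 17532 E2A peaks in DP cells and 2 of the 1516 peaks in iNKT cells fell at these genes. The cells came from the thymus of L-DKO mice aged 3 to 5 weeks, whose genotype is Id2 f/f Id3 f/f LckCre+. All libraries therefore come from cells deficient in Id2 and Id3, the alleles being deleted by Cre from the Lck promoter, which is active in thymocytes, and no E2A library of wild-type cells was used here. DP thymocytes were sorted as CD1dTet- CD4+ CD8+ and iNKT cells as CD1dTet+ TCRβ+, and material from 3 to 4 mice was pooled for each library. There was 1 E2A library (V-18 antibody) and 1 input library per cell type, so that no value has a replicate error and no test between the cell types was made. The lists hold no expression values, so the identity of the sorted cells was not checked here against marker genes.

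E2A is a basic helix-loop-helix transcription factor of the E protein family that binds E-box sequences as a dimer, and Id proteins pair with E proteins and keep them off DNA. Effector cytokines are the secreted products by which T cells act on other cells, and iNKT cells are known for releasing IL-4, IFN-γ and related cytokines soon after stimulation, whereas DP thymocytes are precursors without such effector function. The genes fall into the type 2 cytokines (Il4, Il13 and Il5), the type 17 cytokines (Il17a and Il17f), the T cell growth and helper factors (Il2 and Il21), the inflammatory cytokines (Ifng and Tnf) and the regulatory cytokine Il10.

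The iNKT peaks were found at Il10 and at Ifng. Downstream of Il10, a peak that ranked 42 among the 1516 iNKT peaks overlapped a DP peak that ranked 10341 among 17532. At Ifng, an iNKT peak covered the transcription start site (TSS) and overlapped no DP peak. The sequences of these sites on the plus strand of mm9, which is the coding strand of both genes, are shown because these were the peaks present in iNKT cells, together with the highest DP peak of each gene, which the iNKT list lacks. Capitals mark the E-boxes CAGGTG, its reverse complement CACCTG, and CAGCTG. The first is 150 bases at chr1:132935127-132935276 around the E-boxes of the shared Il10 peak. The second is the 250 bases before the Ifng TSS at chr10:117877853-117878102. The third, at chr1:132919530-132919629, is the site nearest the midpoint of the DP peak inside Il10. The fourth, at chr10:117856291-117856390, is that of the DP peak upstream of Ifng.
Il10 shared peak: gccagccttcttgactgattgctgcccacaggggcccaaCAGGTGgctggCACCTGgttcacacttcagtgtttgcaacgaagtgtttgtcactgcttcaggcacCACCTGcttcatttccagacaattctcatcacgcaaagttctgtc
Ifng promoter: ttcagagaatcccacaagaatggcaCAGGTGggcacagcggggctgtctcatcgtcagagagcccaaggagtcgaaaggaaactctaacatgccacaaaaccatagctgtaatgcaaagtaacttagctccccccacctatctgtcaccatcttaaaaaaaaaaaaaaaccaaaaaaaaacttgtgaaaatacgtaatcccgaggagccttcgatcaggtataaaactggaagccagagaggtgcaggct
Il10 intron, DP: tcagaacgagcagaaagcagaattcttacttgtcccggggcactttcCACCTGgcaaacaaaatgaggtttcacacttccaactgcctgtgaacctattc
Ifng upstream, DP: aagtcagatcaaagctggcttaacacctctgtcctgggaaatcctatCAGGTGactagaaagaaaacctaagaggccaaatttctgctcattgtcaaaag

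At 6 of the 10 genes the DP list had a peak, and at 2 of them, Il10 and Ifng, the iNKT list had one. Under the same rule 65.1% of all protein-coding genes had a DP peak and 16.9% had an iNKT peak, and 15.5% had both. The remaining 4 genes, Il4, Il13, Il17a and Il17f, had no peak of either list, as had 33.5% of all protein-coding genes. The bodies of the 10 genes were 2.63 to 15.7 kb long, and among the 7407 protein-coding genes within that range 68.4% had a DP peak, 15.5% had an iNKT peak and 30.5% had neither. The median number of DP peaks per window was 2 for the 10 genes and 2 for all protein-coding genes. No DP peak had its midpoint within 1 kb of the TSS of any of the 10 genes, the nearest being 1.37 kb from that of Tnf. Of all protein-coding genes 11.6% had one, a share that 10 genes are too few to tell from none. The counts over the 100 kb windows were thus near the shares of all genes, and the windows are not independent, because Il4, Il13 and Il5 are neighbors, as are Il17a and Il17f, and Il2 and Il21.

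**Figure D1:**
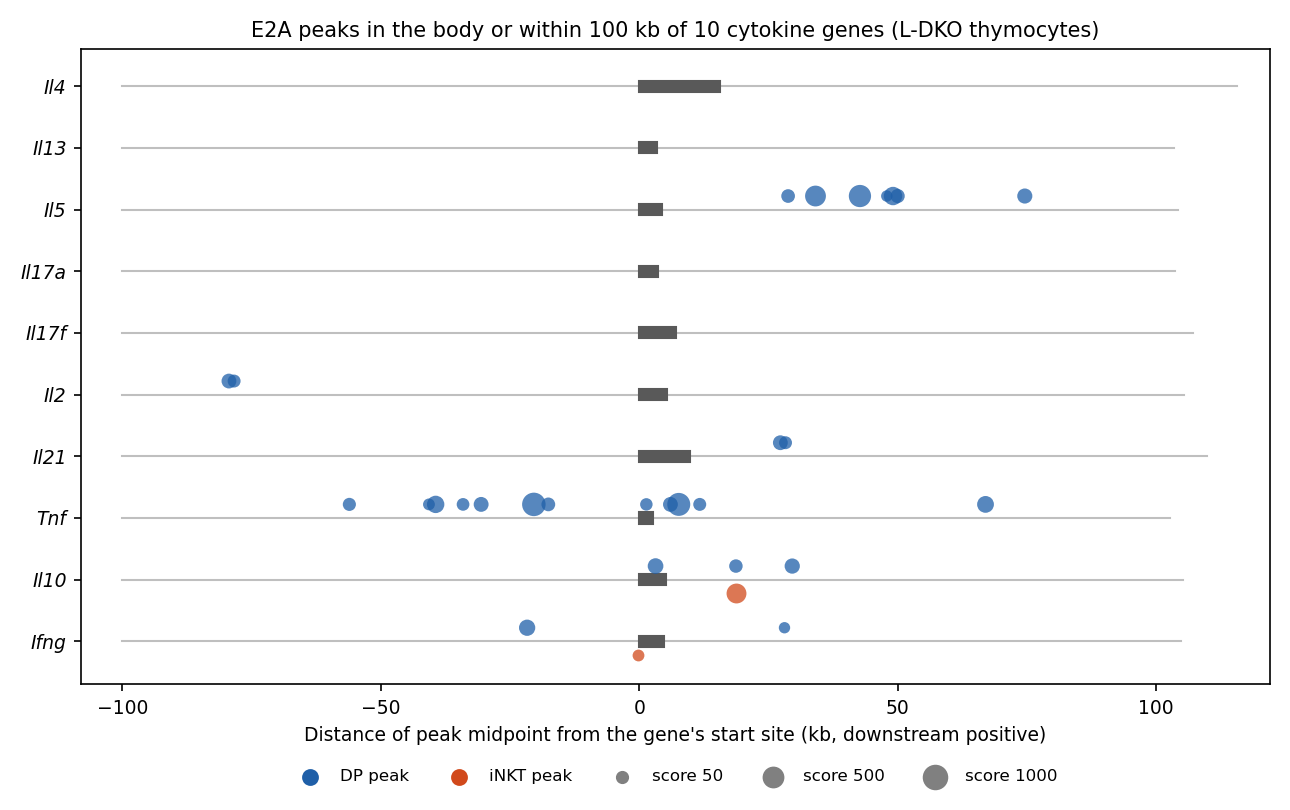
Positions of the E2A peaks at the 10 cytokine genes, as the distance of each peak midpoint from the TSS of the gene in kb (x axis, downstream positive), with 1 row per gene, the gene body as a dark bar, DP peaks above and iNKT peaks below the line, and circle area scaled to the square root of the score. The 12 DP peaks at Tnf and the 7 at Il5 stand against empty rows for Il4, Il13, Il17a and Il17f, and the iNKT peaks lie at Il10 and Ifng.

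Il10 encodes interleukin-10, a cytokine that restrains inflammatory responses. The gene is encoded on the plus strand at chr1:132916422-132921551, with Il19 upstream and Mapkapk2 downstream as its protein-coding neighbors within 100 kb. The iNKT peak lay from 132934446 to 132936046, and its midpoint was 18.8 kb downstream of the Il10 TSS in intergenic sequence, with Il10 as the nearest protein-coding TSS. It was 13.7 kb from the gene body, so a window of 10 kb would not hold it. The 3' end of Mapkapk2, at 132950281, lay at a similar distance on the other side, so the peak was placed at Il10 by position only. The score of the iNKT peak, the value that MACS assigns as 10 times the negative of the log10 p-value, was 518. This placed the peak in the top 2.77% of the iNKT list, the highest place of any peak at the 10 genes in either list. The DP peak at the same site, at chr1:132934613-132935658, scored 109.6 and lay wholly inside the iNKT peak. It stood at 59.0% of the DP list, counted from the top. Scores grow with sequencing depth, which the lists do not give, so only places within a list were compared.

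The Il10 site was thus ranked higher in iNKT than in DP cells, by 56.2 percentage points of the list. Over the 1050 iNKT peaks that overlapped a DP peak, each set beside its highest overlapping DP peak, the median of the DP minus the iNKT percentile was -23.3 points. The DP partners stood high in their own list, with a median score of 1043 against 141 for all DP peaks. The median difference is therefore not a neutral reference for the Il10 pair. In 179 of the 1050 pairs, or 17%, the iNKT peak stood at the higher percentile, and in 12 pairs, that of Il10 included, the difference was at least as large as at Il10. Among the 42 iNKT peaks ranked as high as the Il10 peak or higher, 41 had a DP partner, and 30 of these partners stood in the top 10% of the DP list.

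**Figure D2:**
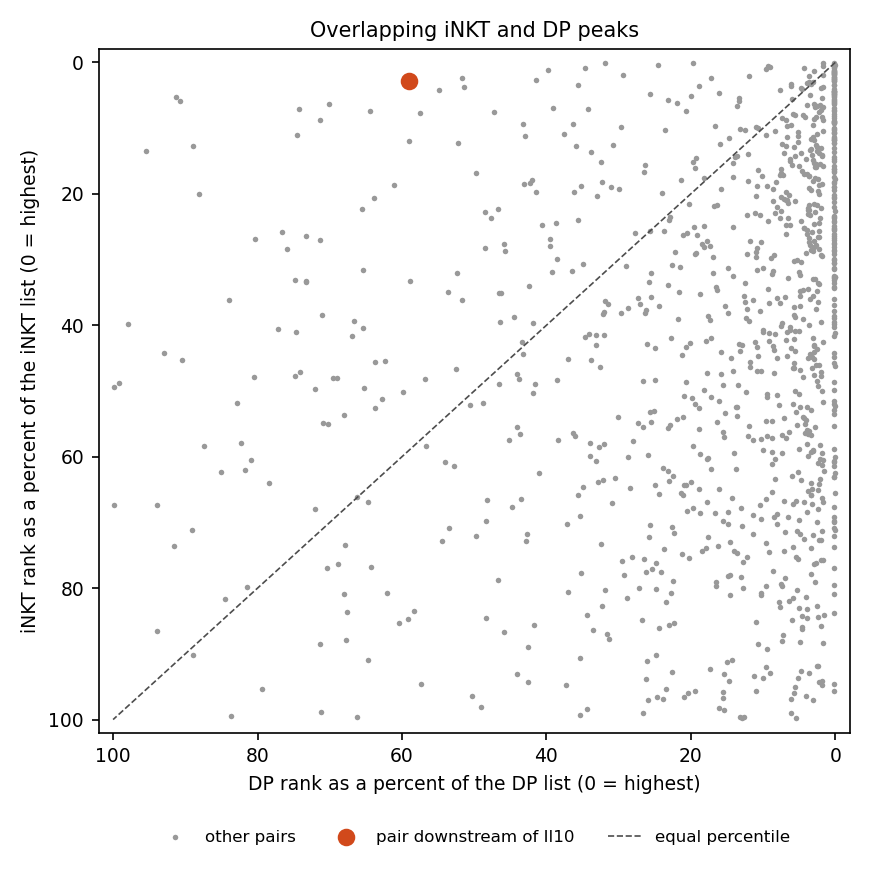
Rank of each of the 1050 iNKT peaks that overlap a DP peak, as a percent of the iNKT list (y axis, 0 the highest), against that of its highest overlapping DP peak in the DP list (x axis, 0 the highest), 1 point per pair. Points above the dashed line stand higher in the iNKT list, and the pair downstream of Il10 (large point) lies at 2.77% of the iNKT and 59.0% of the DP list.

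The shared Il10 site held 3 sites of the form CAGGTG or CACCTG within 72 bp, which are those in the first sequence above. They began 18744, 18755 and 18810 bp downstream of the Il10 TSS. The first 2 lie close together and in opposite orientation, and the third was centered 11 bp from the midpoint of the iNKT peak. In all, 6.33% of iNKT peaks and 2.38% of DP peaks held 3 such sites within as short a span, a feature that was chosen after the sequence had been seen. The iNKT peak also held 2 CAGCTG sites farther out. Of its words of 31 bases, 98.6% occurred once in the assembly, so the sequence was not a repeated one over most of its length.

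DP cells had 2 further peaks at Il10, and the iNKT list had none at either. The first lay inside the gene, from 132918976 to 132920166, with its midpoint in an intron 3.15 kb downstream of the TSS. Its score was 199.9 and its rank 6843, which made it the highest DP peak at Il10. It held 4 CAGGTG sites, of which the one printed above as the intronic sequence was 9 bp from the midpoint. The second lay from 132945686 to 132946405, 29.6 kb downstream of the TSS and short of the 3' end of Mapkapk2, which encodes a kinase of the p38 pathway. It had a score of 179 and ranked 7417. In DP cells the order of the 3 sites was thus the intron, the far downstream site and the shared site, and the shared site was the only one of them in the iNKT list. The nearest DP peak outside the window was 111 kb from the gene body and the nearest iNKT peak outside it was 735 kb away.

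Ifng encodes interferon-γ, the main activator of macrophages made by T cells and NK cells. It is encoded on the plus strand at chr10:117878103-117882948 and has 1 other protein-coding gene, Gm9049, within 100 kb. The iNKT peak lay from 117877337 to 117878248 over the TSS, with its midpoint 0.311 kb upstream. Its score was 64.7, against a median of 79.6 for the list, and it ranked 987 of 1516, at 65.1% of the list. The peak was therefore present in iNKT cells but weak by its rank. An iNKT peak within 1 kb of the TSS was found at 0.434% of all protein-coding genes. Of the 89 iNKT peaks within 1 kb of a protein-coding TSS, 13 overlapped no DP peak, which is 14.6%, and the Ifng peak was among them.

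The Ifng promoter peak held 1 CAGGTG site, which starts 225 bp before the TSS and is the one in the promoter sequence above, and 1 CAGCTG site 34 bp after it. Over all protein-coding genes, 17% had CAGGTG on either strand in the 250 bases before the TSS. The peak also held 3 ACCACA words, the core of the Runx motif, which was present in 65% of all iNKT peaks. All of its words of 31 bases occurred once in the assembly.

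In DP cells, Ifng had 2 peaks, and both were away from the gene. The upstream peak lay from 117855828 to 117856925, 21.7 kb before the TSS, with a score of 233 and a rank of 6171. The downstream peak lay from 117905888 to 117906596, 28.1 kb after the TSS, with a score of 55.3 and a rank of 16383. Neither was in the iNKT list, and the nearest DP peak ended 20.4 kb before the start of the iNKT promoter peak. The upstream peak held 2 CAGGTG sites, the first of which lay 35 bp from its midpoint and is the fourth sequence above. By position within the list, the highest Ifng peak stood at 35.2% in DP cells and 65.1% in iNKT cells, so Ifng did not rank higher in iNKT cells by this measure. By the bare rank it did, with 987 against 6171, but the DP list is longer. Among the 3777 protein-coding genes with an iNKT peak, 20% had their highest peak at a higher percentile in the iNKT list, and of the 2 cytokine genes with one, Il10 was such a gene.

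**Figure D3:**
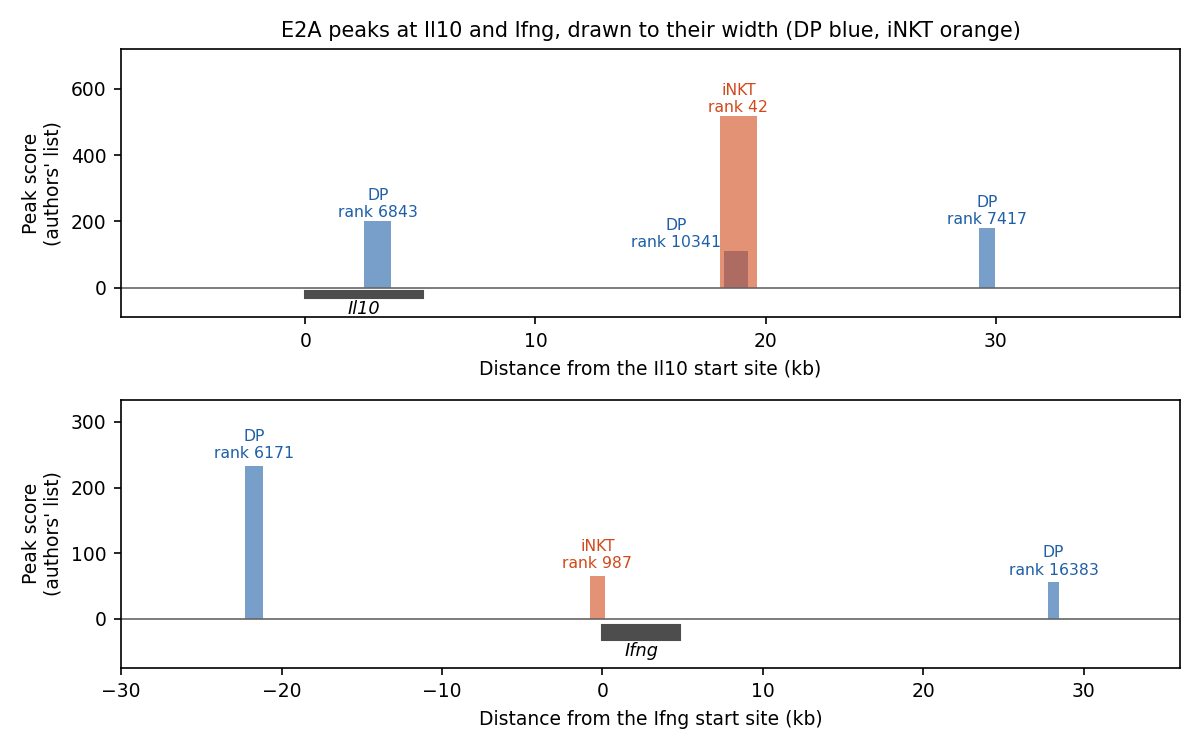
E2A peaks at Il10 (top) and Ifng (bottom), with the distance from the TSS in kb (x axis), the peak score of the authors' lists (y axis) and the rank of each peak in its list; bars span each peak from start to end, and the dark bar is the gene. At Il10 the iNKT peak with rank 42 covers the DP peak with rank 10341, and at Ifng the iNKT peak with rank 987 covers the TSS between the DP peaks, whereas heights are not comparable between the cell types because scores depend on depth.

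Il4 and Il13 encode the cytokines that drive allergic and antibody responses, and they share a cluster on chromosome 11 with Il5, which encodes the growth factor of eosinophils, and with Rad50, a DNA repair gene whose body lies between Il13 and Il5. Il4 lies on the minus strand from 53416484 to 53432171, Il13 on the minus strand from 53444826 to 53448204 and Il5 on the plus strand from 53534296 to 53538608. Neither list had a peak from 53311041 to 53562630, a stretch of 252 kb that holds all 3 genes, Sept8, Kif3a and Rad50. A DP-free stretch of at least this length around the TSS was found at 51.8% of all protein-coding genes, so such a length was common. In the iNKT list the stretch without a peak was 508 kb, from 53144488 to 53652261, and 89.3% of all protein-coding genes lay in one at least as long.

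The nearest DP peak to Il4, at chr11:53310303-53311040, lay 122 kb downstream of its TSS and scored 155. For Il13 it lay 115 kb upstream of its TSS and was the first of 7 DP peaks in the window of Il5. No E2A peak was therefore called at the Il4 and Il13 genes or between them, in DP or iNKT cells.

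The 7 DP peaks in the Il5 window all lay downstream of Il5, from 28.8 to 74.6 kb after its TSS. For 6 of them the nearest protein-coding TSS was that of Irf1, which encodes an interferon regulatory factor and starts 49.2 kb downstream of Il5. For the remaining one it was Gm11006, and for none was it Il5. The highest, at chr11:53576064-53577976, scored 813 at rank 2101, and its midpoint was 6.5 kb upstream of the Irf1 TSS. The second, at chr11:53567697-53569093, scored 623 at rank 2733. A peak over the Irf1 TSS, at chr11:53582776-53583923, scored 383. Most of the peaks counted for Il5 were thus at Irf1 or upstream of it. The other 4 had scores of 57.1 to 173. The highest held 4 CAGGTG sites, and the one nearest its midpoint is shown in 100 bases at chr11:53576942-53577041 on the plus strand, since this was the highest DP peak near the type 2 cluster.
Il5 window, DP: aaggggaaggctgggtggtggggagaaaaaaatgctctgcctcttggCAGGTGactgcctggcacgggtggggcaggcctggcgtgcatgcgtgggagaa

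No iNKT peak fell within 100 kb of Il5. The nearest, at chr11:53652262-53653689, was 114 kb from the gene body and scored 58.0 at rank 1155. Of all peaks at the 10 genes, the one farthest from its gene while still inside the window was 79.4 kb from Il2, and the nearest one outside was a DP peak 106 kb from Il4.

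Il17a and Il17f encode the paired cytokines that recruit neutrophils, and they lie 42.7 kb apart on chromosome 1, on the plus strand from 20720986 to 20724577 and on the minus strand from 20767232 to 20774351. The DP list had no peak from 20250522 to 20975934, a stretch of 725 kb. A DP-free stretch of at least this length held the TSS of 34.1% of all protein-coding genes. The nearest DP peak, at chr1:20975935-20977415 and with score 405, was 256 kb from the TSS of Il17a and 202 kb from that of Il17f. In the iNKT list no peak lay from 13302607 to 21323285, and the nearest was 603 kb from the Il17a TSS. An iNKT-free stretch of at least this length held the TSS of 13.3% of all protein-coding genes. The Il17 genes were thus the members farthest from a DP peak.

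Il2 encodes the growth factor of activated T cells, and Il21 encodes the cytokine of follicular helper T cells that acts on B cells. Both are encoded on the minus strand, Il2 at chr3:37019445-37024881 and Il21 at chr3:37121681-37131540, 96.8 kb apart. Both windows held the same 2 DP peaks, which lay between the genes and next to each other. The first, at chr3:37102888-37103657, scored 92.8 at rank 11526. The second, at chr3:37103728-37104849, scored 160.0 at rank 8060. They were 28.3 and 27.3 kb downstream of the Il21 TSS and 78.4 and 79.4 kb upstream of the Il2 TSS, and Il21 was the nearest protein-coding TSS to both. Neither gene body held a peak. The second peak held 3 CACCTG sites on the plus strand, and the one nearest its midpoint is shown in 100 bases at chr3:37104463-37104562, while the first held 1 CAGCTG site and no CAGGTG.
Il21 and Il2, DP: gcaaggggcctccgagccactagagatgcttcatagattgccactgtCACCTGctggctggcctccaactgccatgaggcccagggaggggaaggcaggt
The iNKT list had no peak within 1 Mb of either gene, the nearest being 1048 kb from Il21 and 1154 kb from Il2. The nearest iNKT peak was at least as far from 30.2% and 27.5% of all protein-coding genes, whose median distance was 515 kb.

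Tnf encodes tumor necrosis factor, an inflammatory cytokine, and is encoded on the minus strand at chr17:35336326-35338952, between Ltb and Lta, which encode the lymphotoxins of the same family. Its window held 12 DP peaks, the most of any of the 10 genes, and no iNKT peak. At least 12 DP peaks were found at 4.28% of all protein-coding genes. The window also held 20 other protein-coding genes, against 1 to 6 for the other members, and Tnf was the nearest TSS for 1 of the 12 peaks. That peak, from 35337075 to 35338091, had its midpoint in an intron of Tnf 1.37 kb after the TSS, with a score of 80.5 and a rank of 12657. It held 2 CAGCTG sites and no CAGGTG.

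The strongest DP peaks in the Tnf window were at its neighbors. The highest, at chr17:35358726-35360079, scored 1009.8 at rank 1649 and lay 20.4 kb upstream of Tnf in an intron of Nfkbil1 that also falls within Gm16181. The second, at chr17:35330715-35331902, scored 926 at rank 1840 and covered the TSS of Ltb, with its midpoint 0.076 kb before it. Another peak at Ltb, at chr17:35332132-35333721 over a coding exon, scored 160.0. The peaks over the TSS of Ddx39b, an RNA helicase gene, and of Bag6, a chaperone gene, had scores of 304 and 264, and neither held CAGGTG or CAGCTG. The other 6 had scores of 64.8 to 163. The Nfkbil1 site is printed in 100 bases at chr17:35359243-35359342 on the plus strand, since it had the highest score of the 26 DP peaks, and the printed bases hold 2 CAGCTG sites and 1 CACCTG site.
Tnf window, DP: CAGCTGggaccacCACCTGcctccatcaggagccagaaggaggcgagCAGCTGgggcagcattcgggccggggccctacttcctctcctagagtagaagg
The nearest iNKT peak to Tnf was 551 kb from its TSS, with a score of 73.2, and 48.1% of all protein-coding genes were at least as far from one.

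**Figure D4:**
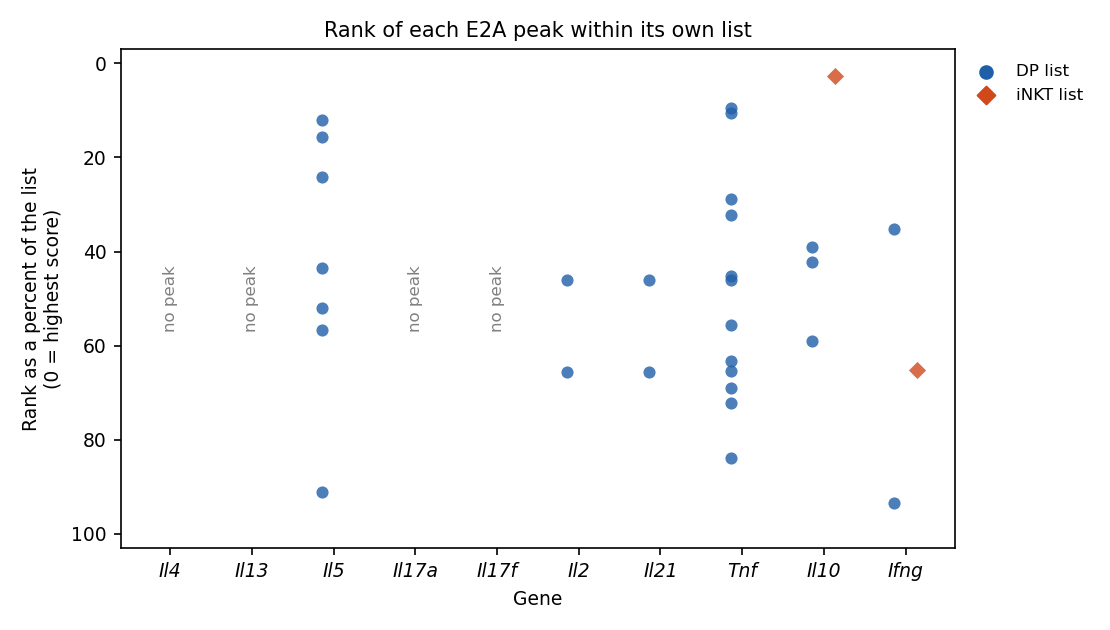
Rank of each E2A peak at the 10 cytokine genes as a percent of its own list (y axis, 0 the highest score), by gene, with DP peaks as circles and iNKT peaks as diamonds; the DP peaks of Il2 and Il21 are the same 2 peaks. The highest point is the iNKT peak of Il10 at 2.77%, and the DP peaks range from 9.41% at Tnf to 93.4% at Ifng.

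Over all 26 DP peaks at the 10 genes, the median score was 160, against 141 for the whole DP list, and scores ran from 55.3 to 1009.8. Their median width was 1072 bp against 984 bp, and their median GC content was 50.8% against 48.7%. A CAGGTG site on either strand was present in 19 of the 26, which is 73.1%, and in 79% of all DP peaks. A CAGCTG site was present in 17 of the 26 and in 63.4% of the list, and 4 of the 26 held CAGCTG without CAGGTG, against 12.9%. The 3 left, at Bag6, Lst1 and Ddx39b, held neither, as did 8.09% of all DP peaks. These shares and medians were near those of the whole list, and the differences were not tested. For 8 of the 26 the nearest protein-coding TSS was that of one of the 10 genes, 3 of them at Il10, 2 at Ifng, 2 at Il21 and 1 at Tnf. The other 18 were nearest to a neighbor, 6 of them to Irf1. Of the 26, 1 overlapped an iNKT peak, as did 5.99% of all DP peaks, and 26 peaks are too few to tell these shares apart. The Il10 peak, 1 of the 2 in iNKT cells, was shared with the DP list, as were 69.3% of all iNKT peaks. Both iNKT peaks held CAGGTG, as did 80.9% of that list, and both held CAGCTG, as did 61%. In iNKT cells 7.85% of peaks held CAGCTG without CAGGTG and 11.3% held neither, and no peak at the 10 genes was of these kinds. When 200 bp at the midpoint were searched, 10 of the 28 peaks held CAGGTG, against 43.9% of all DP and 52.8% of all iNKT peaks. The median number of copies in the assembly was 1 for the words of 31 bases of each of the 28 peaks.

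The cores of other motifs were also searched on both strands of the 26 DP peaks. The Runx core ACCACA was present in 19, and 63.5% of all DP peaks held it. The Tcf7 and Lef1 core TCAAAG was present in 13, against 55.6% of the list, and the Gata3 core TTATCT in 9, against 40.1%. The Il10 iNKT peak held 3 ACCACA and 1 TTATCT, which 47.6% of iNKT peaks held. It held no TCAAAG, which 58.8% of iNKT peaks held. These words are short, and a match is not a binding site.

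Other cytokine genes and the genes of cytokine regulators were looked up by the same rule for comparison. Of 23 other cytokine genes, 19 had a DP peak and 9 had an iNKT peak (Fasl, Il16, Il22, Osm, Lif, Csf2, Il9, Tnfsf14 and Cd40lg). The shares of all protein-coding genes were 65.1% and 16.9%, and the difference was not tested. Among the 9, Tnfsf14, a ligand of the TNF family, had its promoter peak in both lists. In iNKT cells this peak had a score of 137 and a rank of 352, and it was a stronger promoter peak by rank than that of Ifng. Osm and Lif, which shared 1 iNKT peak with a score of 106, stood at a higher percentile in the iNKT list, at 33.2% against 47.9%, as Il10 did. The iNKT peak of Il22 lay 149 kb from Ifng, outside its window, and overlapped no DP peak. The highest DP peaks of this list were at Tnfsf11, with a score of 3151, Tnfsf14, with 2052, and Il16, with 1902, all above the 1009.8 reached at the 10 genes. Ltb and Lta, which are in this list, share the 12 DP peaks of the Tnf window. Neighbors such as these, and Osm and Lif, share peaks, so the genes of this list are not separate cases.

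Of 24 genes for regulators of cytokine transcription, all had a DP peak and 11 had an iNKT peak (Zbtb16, Eomes, Stat6, Ikzf1, Irf1, Ikzf3, Stat5a, Stat5b, Stat3, Irf4 and Nfil3), against 65.1% and 16.9% of all protein-coding genes. Stat5a, Stat5b and Stat3 are neighbors and share 1 iNKT peak, so the 11 genes are not separate cases. None of the 11 stood at a higher percentile in the iNKT list. The median number of DP peaks per window was 7 for the regulators, against 2 for the 10 cytokine genes, and the median distance from TSS to the nearest DP peak was 3.37 kb against 53.6 kb. This median was 9.66 kb for the other cytokine genes and 54.7 kb for all protein-coding genes, so the 10 genes were near the latter. These differences were not tested. The window includes the gene body, so longer genes have wider windows, and the regulators were not matched for body length. At Zbtb16, for example, the highest DP peak in the window lay 185 kb after the TSS. The best iNKT peak among the regulators was at Ikzf3, with a score of 325 and a rank of 106, below the rank of 42 at Il10.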

How the data were processed

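The authors aligned ChIP-Seq reads to mm9 with Bowtie 1.1.2, retaining only reads placed uniquely best, and found peaks by MACS 1.4.2 with default parameters, per the labels and the study's methods. The lists are named as E2A against input, 1 per cell type. Each deposited peak has coordinates and a score, which is 10 times the negative of its log10 p-value and is not scaled to depth. The lowest score was 50.0 in both lists, a p-value of 1e-05. The lists used here give no read counts, so the depth is unknown, and no interval or floor is given. The median score was 141 in the DP and 79.6 in the iNKT list.

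Genes came from GENCODE M1 on NCBIM37, the assembly of mm9. Starts were counted from 1. Overlap meant at least 1 bp, ranks gave ties the lowest number, and the percentile was 100 times the rank over the list length. Motifs were searched on both strands of whole peaks, and words of 31 bases were counted in the assembly. All members, the peaks in their windows and the genes at or nearest to those peaks could be named, and other neighbors are named for position. The rule for the comparison lists names genes with an iNKT peak and the 3 with the highest DP peak, and of the regulators the latter, with 1 motif, are not reported here. The members and lists were chosen with earlier results of these data known. The span of E-boxes at Il10 was chosen after its sequence was seen. The functions were tested on simulated data. Python 3.11.15, numpy 2.4.6, pandas 2.3.3, numba 0.67.0 and matplotlib 3.10.9 were used. The alternatives changed the window, the placement, the minimum score, the overlap, the rank scale and the motif search. The input libraries and reads were not analysed here.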

Additional observations from a re-analysis of the deposited data

How the results depend on the processing

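Alternatives gave 40 values of 8 results, of which 27 stayed within 1.5 times the reported count and 13 moved. With a window of 10 kb, 5 DP peaks at 2 genes and 1 iNKT peak at 1 gene, Ifng, remained, since the iNKT peak of Il10 lies 13.7 kb from the gene body and is lost. With 200 kb there were 56 DP and 5 iNKT peaks, of which 3 DP and 3 iNKT peaks overlapped the other list; wider windows hold more by construction. With a minimum score of 100, 1 iNKT peak at 1 gene was left, because the Ifng peak has a score of 64.7. When only peaks nearest to the TSS of a member were counted, 8 DP peaks were left. By bare rank, 2 genes, Il10 and Ifng, ranked higher in the iNKT list, so the direction at Ifng reversed from that by percentile (65.1% in iNKT and 35.2% in DP cells, ranks 987 and 6171). By percentile the count stayed at 1 with windows of 50 and 200 kb and with a minimum score of 100. CAGGTG was found in 10 of the 28 peaks when 200 bp at the midpoint were searched, against 21 over whole peaks. No paired analysis was possible because each cell type has 1 library. Depth is unknown and may limit what the shorter iNKT list can show, which was not tested. The lack of a peak does not show that E2A was absent.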
